A study of Mus musculus with 9 samples.

Results

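The TNF ligand and receptor superfamily was followed across lung organoids of naïve and cigarette smoke (CS)-exposed mice. The members were all genes on the array whose symbol starts with Tnfsf or Tnfrsf, together with Tnf, Lta, Ltb, Fas, Fasl, Cd40, Cd40lg, Cd27, Cd70, Ltbr, Ngfr and Eda2r. They numbered 41 of the 22180 genes that carried a single symbol, with 15 ligands and 26 receptors, and each was read by 1 transcript cluster, the set of probes that the array sums for a transcribed locus. A further 2 transcript clusters joined a family symbol to other symbols and were assigned to no gene. The first joined Tnfsf12 and Tnfsf13, which are thus unmeasured here. The other joined Tnfrsf18 to Gm16008, so Tnfrsf18 was read only by its cluster with a single symbol.

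The organoids were grown in Matrigel from digested lung of adult male BALB/c mice. ND14 organoids came from naïve mice kept in clean air and were taken at culture day 14. CSD14 and CSD5 organoids came from mice exposed whole-body to CS for 12 weeks and were taken at culture day 14 and day 5. The medium was changed for differentiation after day 6, so CSD5 differs from CSD14 in medium as well as in culture day, and from ND14 in exposure, day and medium. The later medium is described as having less serum and as used with or without inhibitors of ROCK and of TGF-β, and it is not given which cultures received them. No transgene or deletion is named for the mice. Each group held 3 arrays, numbered as biological replicates, but it is not given whether they came from separate mice or cultures. The p-values thus reflect only how these samples vary, which may be technical.

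TNF superfamily ligands are mostly trimeric membrane proteins that can be cut from the cell surface, and each binds 1 or more receptors. Death receptors carry an intracellular death domain and can recruit caspases, whereas the other signalling receptors bind TRAF adaptors and drive NF-kB and MAP kinase signalling. Decoy receptors bind a ligand without passing on a death signal. In the lung, epithelial cells respond to TNF, lymphotoxin and TRAIL, while many of the costimulatory pairs, such as OX40 with its ligand, are known mainly from lymphocytes.

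Values are log2 signals as deposited, so a difference of 1 is a doubling, and signals of different genes are not set against each other because probes differ in brightness. Array medians lay between 2.79 and 3.04, and at such levels background is not parted from low expression. Of the 41 members, 11 lay under the array median on all 9 arrays, 22 lay above it on all 9, and the rest crossed it. CSD5 replicate 1 stood apart from its group, with a mean correlation of 0.991 to the ND14 arrays and 0.973 to the other CSD5 arrays, and comparisons with CSD5 are given with and without it. Epithelial markers lay well above the array median on every array (the mean of Epcam, Cdh1, Krt8, Krt18 and Cldn4 was 8.86 to 9.38). Under the array median on all 9 lay 4 of 8 T and NK cell markers and 3 of 4 B cell markers, but only 1 of 10 macrophage and dendritic cell markers. Cd68 of that last list was at 8.40 to 9.62.

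Between CSD14 and ND14, which share the culture day, 4 members were higher in CSD14 (Ngfr, Tnfsf10, Tnfrsf4 and Tnfrsf21) and 1 was lower (Tnfrsf23). Calls are at a limma adjusted p under 0.05 over all 34472 transcript clusters. These 5 of 41 are 12.2%, against 9.15% of all transcript clusters and 12.4% of the named genes, so the share of changed members was near that of genes at large. The median log2 difference was 0.02 over the members and 0.00 over all transcript clusters. The remaining 36 members did not pass, and the 95% interval of each of them lay within 1 log2 unit of 0. The arrays of CSD14 and ND14 did not overlap in 12 members (9 above, 3 below), which is 29.3% against 24.3% of all transcript clusters. At the study's thresholds (a fold change above 2 with p under 0.05 before adjustment), 4 members passed (Ngfr, Tnfsf10, Tnfrsf4 and Tnfrsf23), where 4.75% of all transcript clusters did. Marker lists of epithelium and of other cells also moved between these groups. Squamous and basal markers moved furthest (8 of 9 lower in CSD14, median -3.22). Of 7 alveolar type 2 markers 3 rose and 0 fell, with Sftpc at -1.52 (adjusted p = 0.0597) and Napsa at -0.58 in the other direction. Alveolar type 1 markers (2 of 5 higher, 1 lower) and airway markers (2 of 4 higher, 1 lower) went both ways, 3 of 5 pan-epithelial markers rose, and S100a8 and S100a9 fell among 5 neutrophil markers. Their part in the differences of the members was not tested.

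**Figure D1:**
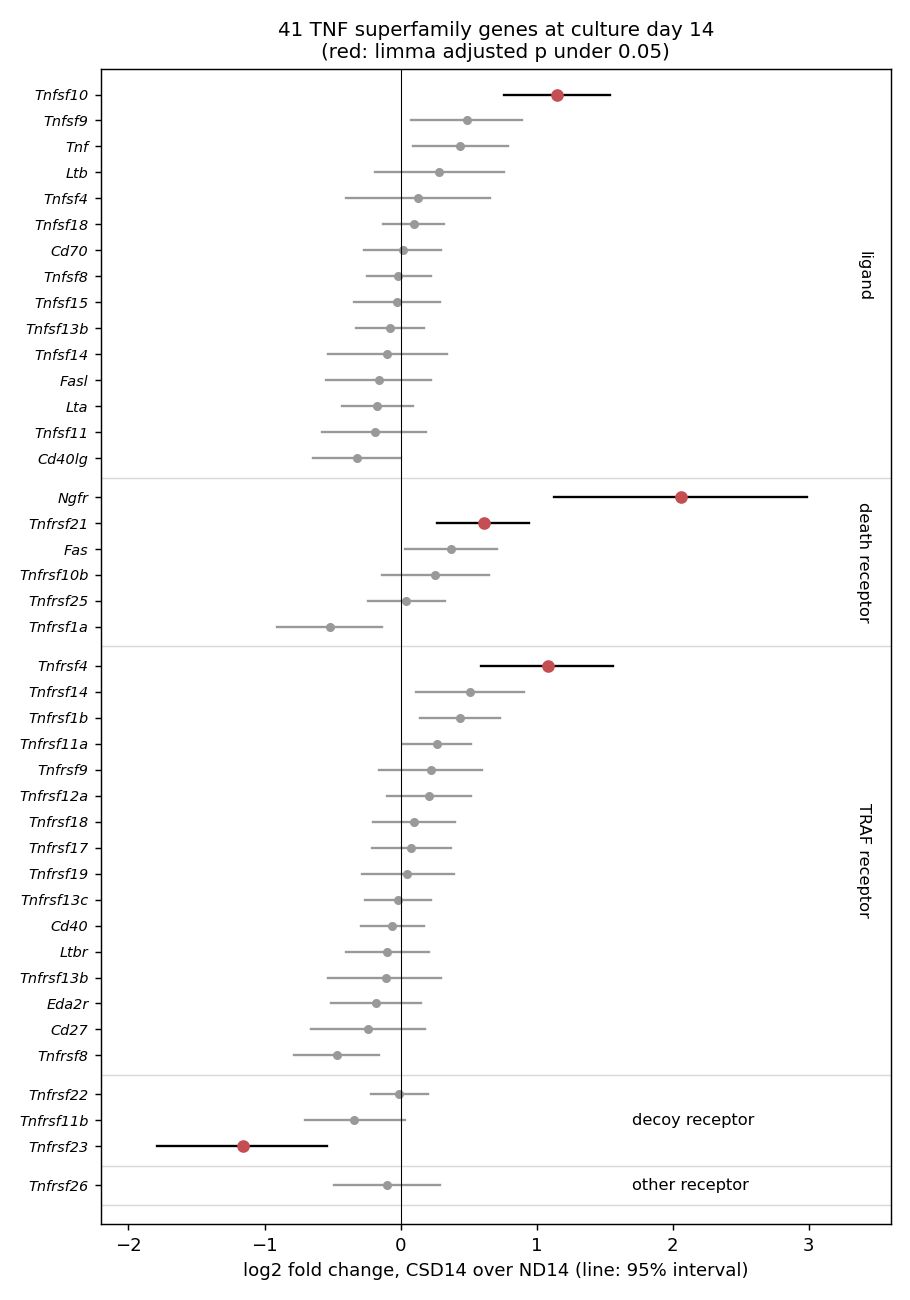
Log2 fold change of CSD14 over ND14 for each of the 41 genes, ordered by role, with the 95% interval from limma (3 arrays in each group). The 5 red points passed the adjusted test, and the intervals of the 36 grey genes all lie between -1 and 1.

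The upstream sequences of the 5 genes that differed are shown because they include a ligand and 4 receptors of distinct function that moved in the same comparison. Each run is the 250 bases before the gene's start in RefSeq (GRCm38.p6), 5′ to 3′ on the gene's strand, and capitals mark matches on either strand to the core of the interferon regulatory factor (IRF) site, AANNGAAA.

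Tnfsf10 (chr3:27316827-27317076, plus strand): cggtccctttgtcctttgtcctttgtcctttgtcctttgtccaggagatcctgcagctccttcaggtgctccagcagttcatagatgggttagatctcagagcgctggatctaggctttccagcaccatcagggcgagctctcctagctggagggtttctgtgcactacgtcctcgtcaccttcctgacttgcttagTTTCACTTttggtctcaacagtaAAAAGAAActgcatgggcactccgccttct
Ngfr (chr11:95587699-95587948, minus strand): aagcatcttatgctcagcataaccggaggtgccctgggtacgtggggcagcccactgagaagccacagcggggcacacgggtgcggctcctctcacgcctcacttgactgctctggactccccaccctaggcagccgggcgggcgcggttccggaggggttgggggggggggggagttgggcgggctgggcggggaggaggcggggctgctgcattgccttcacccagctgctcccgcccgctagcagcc
Tnfrsf4 (chr4:156013445-156013694, plus strand): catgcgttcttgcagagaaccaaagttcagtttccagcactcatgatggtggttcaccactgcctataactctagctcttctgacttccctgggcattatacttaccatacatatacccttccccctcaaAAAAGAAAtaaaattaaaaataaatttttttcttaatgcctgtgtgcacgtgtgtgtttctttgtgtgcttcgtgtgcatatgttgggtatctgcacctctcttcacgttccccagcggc
Tnfrsf21 (chr17:43016305-43016554, plus strand): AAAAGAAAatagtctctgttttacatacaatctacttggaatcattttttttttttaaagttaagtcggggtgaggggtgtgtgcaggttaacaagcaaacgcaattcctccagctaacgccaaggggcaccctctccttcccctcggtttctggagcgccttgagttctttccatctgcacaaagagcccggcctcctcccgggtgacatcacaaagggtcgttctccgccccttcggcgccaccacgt
Tnfrsf23 (chr7:143685876-143686125, minus strand): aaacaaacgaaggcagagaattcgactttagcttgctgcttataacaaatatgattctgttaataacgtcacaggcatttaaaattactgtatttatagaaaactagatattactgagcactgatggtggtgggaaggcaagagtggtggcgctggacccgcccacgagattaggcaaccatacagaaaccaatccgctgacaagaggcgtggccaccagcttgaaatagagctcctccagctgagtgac

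Tnfsf10 held 2 matches, at 53 to 46 and 30 to 23 bases before its start, Tnfrsf4 and Tnfrsf21 held 1 each, and Ngfr and Tnfrsf23 held none. The same letters occurred in 21.3% of the 32851 promoter windows of this length and in 12 of 36 windows (33.3%) of the 32 members found in the table. An NF-kB-like pattern (GGG, then any 3 bases, then TTCC) and the AP-1 pattern TGANTCA were searched on both strands as well and matched none of the 5 genes. The NF-kB-like pattern was found in 4.65% of all windows and in 4 of 36 member windows (11.1%), those of Eda2r, Ltb, Tnfrsf25 and Tnfrsf9. The AP-1 pattern was found in 6.75% of all windows and in 5 of 36 member windows (13.9%), those of Fas, Tnfrsf8, Tnfrsf9, Tnfsf13b and Tnfsf14. The motifs were chosen with the results known, and a match of letters does not show that a site is used.

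Among the ligands, Tnfsf10, which encodes the death ligand TRAIL, was the member whose level rose in CSD14. Its log2 signal was 4.36, 4.14 and 4.30 in CSD14, 2.86, 3.26 and 3.23 in ND14, and 2.98, 3.37 and 3.59 in CSD5. The CSD14 arrays were thus above all 6 others, and the ND14 signals lay near the array median, so the size of the change is not exact. The difference of CSD14 over ND14 was 1.15 (SE 0.17, limma adjusted p = 0.00343, n = 3 per group), a 2.22-fold change. It passed in all 18 alternatives tried, with a log2 difference of 1.02 to 1.26. TRAIL is an interferon-inducible gene, and its own signalling receptor Tnfrsf10b (DR5) did not pass, at 5.86, 5.56 and 5.56 in CSD14 against 5.53, 5.56 and 5.13 in ND14 and 5.41, 5.59 and 5.97 in CSD5 (0.25 for CSD14 over ND14, SE 0.18, adjusted p = 0.538). The 95% interval of the Tnfrsf10b difference ran from -0.14 to 0.65.

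Mice have decoy receptors for TRAIL, and Tnfrsf23 was the member that fell in CSD14. Its log2 signal was 6.01, 6.25 and 5.36 in CSD14, 6.86, 6.98 and 7.27 in ND14, and 7.0, 6.78 and 6.05 in CSD5. The highest CSD14 array lay under the lowest ND14 array, and CSD5 replicate 3 lay among the CSD14 arrays. The difference of CSD14 over ND14 was -1.16 (SE 0.28, limma adjusted p = 0.0284). Each group held only 3 arrays, and leaving out CSD14 replicate 1 or 3 lost the call, with a limma adjusted p of 0.0714 or 0.0981. Leaving out ND14 replicate 1, 2 or 3 gave 0.066, 0.0793 or 0.112, and over these 5 fits the log2 difference ranged from -1.25 to -0.91. The second decoy gene, Tnfrsf22, was level across all 9 arrays, between 4.92 and 5.05, with a difference of -0.01 (95% interval -0.22 to 0.20). Tnfrsf11b, which encodes the soluble decoy osteoprotegerin for RANKL and TRAIL, was at 3.07, 3.44 and 3.30 in CSD14, 3.57, 3.81 and 3.44 in ND14, and 3.84, 3.44 and 3.38 in CSD5, with overlap (-0.34, SE 0.16, adjusted p = 0.306).

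**Figure D2:**
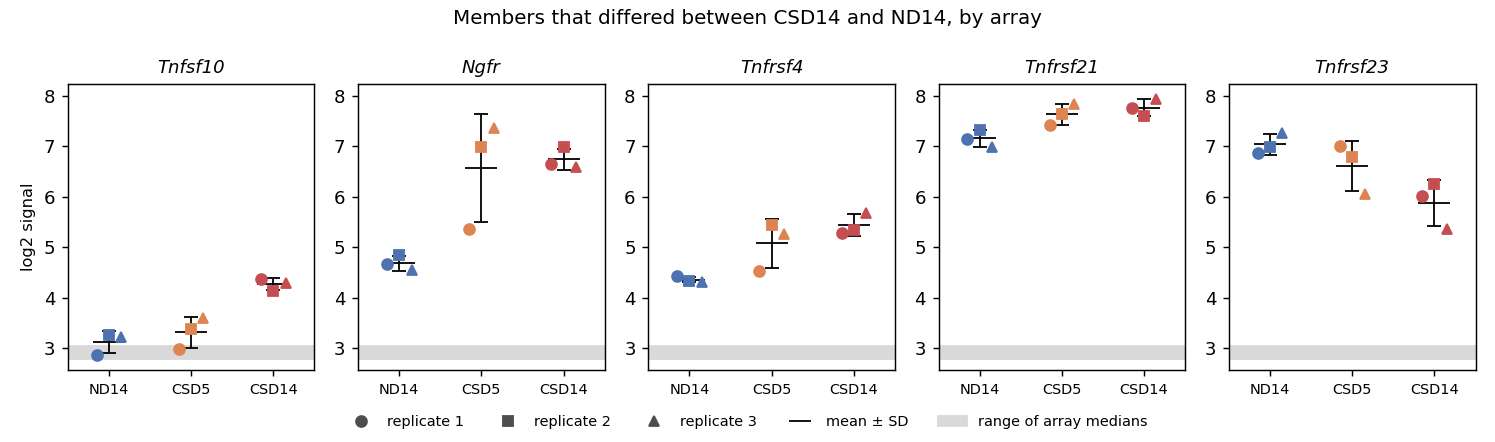
Log2 signal of the 5 genes that differed between CSD14 and ND14, 1 point per array with the mean and SD of each group; the grey band spans the array medians. Tnfsf10, Ngfr, Tnfrsf4 and Tnfrsf21 are higher and Tnfrsf23 lower in all 3 CSD14 arrays than in any ND14 array. Of the CSD5 arrays, replicate 1 lies nearest the ND14 mean in each of the 5 genes.

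The death domain receptors did not move together. Ngfr, which encodes the p75 neurotrophin receptor and marks basal cells of the airway, showed the largest difference of the 41 members. Its log2 signal was 6.65, 6.98 and 6.59 in CSD14, 4.66, 4.84 and 4.55 in ND14, and 5.36, 6.98 and 7.36 in CSD5. The CSD14 arrays lay well above the ND14 arrays, while the CSD5 arrays ran from between these groups to above them. CSD14 exceeded ND14 by 2.06 (SE 0.42, limma adjusted p = 0.0132), a 4.16-fold change, and the SE fell to 0.15 (adjusted p = 1.8e-05) without CSD5 replicate 1, whose distance from its group widens the shared spread. The adjusted p was 0.0565 without CSD14 replicate 2 and 0.052 and 0.0564 without ND14 replicates 1 and 3. Squamous and basal epithelium markers moved the other way, with a mean log2 signal of 6.10 to 6.22 in CSD14, 9.55 to 9.57 in ND14 and 9.54, 8.17 and 7.97 in CSD5. Among them the basal factor Trp63 differed by -0.53 (SE 0.11, adjusted p = 0.0179) and the basal keratin Krt14 by -1.24 (SE 0.14, adjusted p = 0.00133). What part the change of epithelial markers has in the Ngfr difference was not tested, and fewer cells of a type and less RNA per cell cannot be told apart in bulk RNA.

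Tnfrsf21, which encodes death receptor 6, had log2 signals of 7.75, 7.60 and 7.94 in CSD14, 7.15, 7.33 and 6.99 in ND14, and 7.42, 7.63 and 7.84 in CSD5. Both CS groups lay above every ND14 array. CSD14 exceeded ND14 by 0.61 (SE 0.15, limma adjusted p = 0.0312), a 1.52-fold change, and it passed in 11 of 18 alternatives. At the study's thresholds its fold was too small. It did not pass without CSD5 replicate 2 (adjusted p = 0.0505), CSD14 replicate 1 or 3 (0.0903 and 0.118), or ND14 replicate 1 or 3 (0.101 and 0.122), and its adjusted p was 0.0602 with the replicate number as a block.

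Tnfrsf1a, the main signalling receptor for TNF on epithelium, had log2 signals of 6.43, 6.35 and 6.48 in CSD14, 7.07, 6.78 and 6.98 in ND14, and 6.68, 6.43 and 5.97 in CSD5. All 6 CS arrays lay under the ND14 arrays, by 0.52 on average in CSD14 (SE 0.17), but the difference did not pass (limma adjusted p = 0.104). Its adjusted p was 0.021 in a fit of only the 6 arrays compared and 0.0407 and 0.028 without CSD5 replicates 1 and 3. With array weights it was 0.00931, and in none of the others among the 18 alternatives did Tnfrsf1a pass. Fas, which encodes the receptor of Fas ligand, was near the array medians, at 3.27, 3.09 and 3.44 in CSD14 and 2.84, 3.15 and 2.69 in ND14 (0.37, adjusted p = 0.206), with 2.84, 3.12 and 2.85 in CSD5, and the groups overlapped. Its ligand gene Fasl was at 2.76, 2.75 and 2.76 in CSD14, 2.76, 3.24 and 2.76 in ND14, and 2.93, 2.76 and 2.37 in CSD5 (-0.16, adjusted p = 0.728), with ND14 replicate 2 the highest and CSD5 replicate 1 next. Tnfrsf25, the receptor of TL1A, differed by 0.04 (95% interval -0.24 to 0.33).

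Tnf itself did not pass in any comparison with all 9 arrays. Its log2 signal was 4.65, 4.32 and 4.31 in CSD14, 3.83, 3.82 and 4.31 in ND14, and 4.31, 4.32 and 4.31 in CSD5. ND14 replicates 1 and 2 were low, while ND14 replicate 3 lay level with 5 of the CS arrays. The difference of CSD14 over ND14 was 0.44 (SE 0.15, limma adjusted p = 0.132, 95% interval 0.09 to 0.79). Among the 18 alternatives the difference passed only without ND14 replicate 3, at 0.60 (adjusted p = 0.0408). Such repeated values are a property of the deposited table, in which 32.4% of all transcript clusters and 19 of the 41 members (46.3%) had an equal value, to 2 decimals, on 3 or more arrays. Its cause was not tested, and the SD of a group with equal values says little about the spread between samples.

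The second TNF receptor, Tnfrsf1b, which recruits TRAF adaptors and lacks a death domain, ran opposite to Tnfrsf1a. Its log2 signal was 4.53, 4.30 and 4.30 in CSD14, 3.82, 4.0 and 4.0 in ND14, and 4.30, 4.47 and 4.69 in CSD5. Every CS array was above every ND14 array. The difference of CSD14 over ND14 was 0.44 (SE 0.13, limma adjusted p = 0.0738), which was not a call. The adjusted p was 0.0472 with only the 6 arrays compared and 0.0429 without CSD5 replicate 1. It was 0.049 without the dimmest transcript clusters and 0.0127 with array weights. In none of the others among the 18 alternatives did Tnfrsf1b pass.

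**Figure D3:**
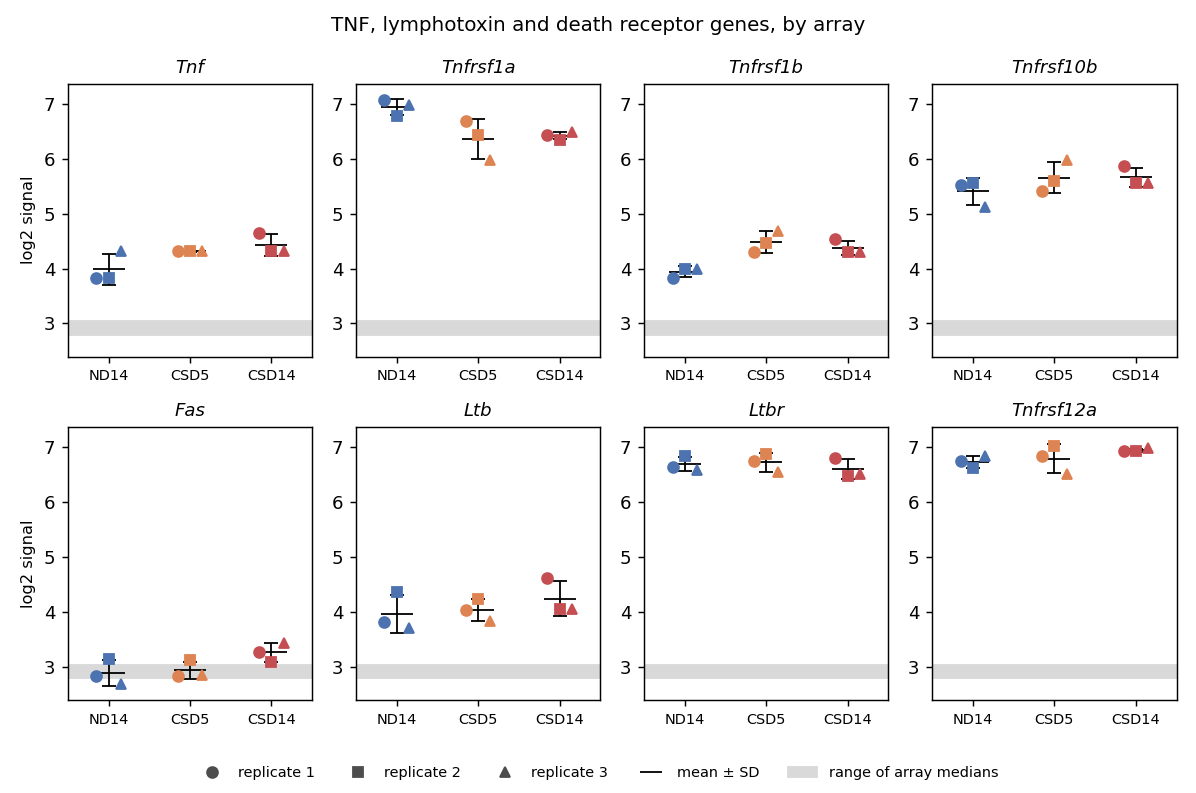
Log2 signal by array of TNF, its 2 receptors, the TRAIL and Fas receptors, lymphotoxin beta with its receptor and Tnfrsf12a, with the mean and SD of each group and the range of array medians in grey. Tnfrsf1a is lower and Tnfrsf1b higher in all 6 CS arrays than in the ND14 arrays, and neither difference passed the adjusted test with all 9 arrays.

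Lymphotoxin genes showed no difference that passed. Ltb, the membrane anchor of the lymphotoxin heterotrimer, had log2 signals of 4.61, 4.06 and 4.06 in CSD14, 3.82, 4.36 and 3.70 in ND14, and 4.03, 4.24 and 3.84 in CSD5, with overlapping groups (0.28, SE 0.21, limma adjusted p = 0.572). Its receptor Ltbr was at 6.81, 6.48 and 6.51 in CSD14, 6.65, 6.85 and 6.59 in ND14, and 6.75, 6.88 and 6.55 in CSD5 (-0.10, 95% interval -0.40 to 0.21). Lta, which encodes the soluble partner, was at 2.79, 3.01 and 2.84 in CSD14, 2.96, 3.22 and 2.96 in ND14, and 3.03, 2.96 and 2.90 in CSD5 (-0.17, adjusted p = 0.536). All 3 genes overlapped between the groups, and Lta lay near the array medians.

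Among the TRAF-binding receptors, Tnfrsf4, which encodes the costimulatory receptor OX40, was the member that rose. Its log2 signal was 5.28, 5.34 and 5.68 in CSD14, 4.42, 4.33 and 4.32 in ND14, and 4.53, 5.44 and 5.27 in CSD5. CSD5 replicate 1 stood beside the ND14 arrays and the other CSD5 arrays beside CSD14. CSD14 exceeded ND14 by 1.08 (SE 0.22, limma adjusted p = 0.013), a 2.11-fold change, with adjusted p = 0.0583 without CSD14 replicate 3 and 0.0535 without ND14 replicate 3. OX40 is best known from activated T cells. Of 8 T and NK cell markers 0 passed in any comparison, their mean log2 signal was 2.63 to 2.68 in CSD14 and 2.62 to 2.82 in ND14, and Cd3g, Cd2, Cd8a and Ncr1 lay under the array median on every array, where a change may not be seen. Which cells carried the Tnfrsf4 signal was not tested. Its ligand Tnfsf4 was low as well, between 1.90 and 2.41 except in CSD14 replicate 3 (3.05), and did not pass (0.13, adjusted p = 0.859).

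A pair of the members that changed lie beside relatives that did not pass. In the RefSeq table Tnfrsf4 neighbours Tnfrsf18 (GITR) on chromosome 4 with no protein-coding gene between them. Tnfrsf18 lay between 5.34 and 5.89 on all 9 arrays, with a difference of 0.10 (95% interval -0.20 to 0.40). The further cluster that joins Tnfrsf18 to Gm16008 was not examined. On chromosome 7, Tnfrsf26, Tnfrsf22 and Tnfrsf23 follow each other without a gene between, and Tnfrsf26 differed by -0.10 (95% interval -0.49 to 0.29) where Tnfrsf23 differed by -1.16. Tnfrsf26 lay under the array median on 8 of 9 arrays, where a change may not be seen. The neighbours were chosen with the values known, and the differences between neighbouring genes were not tested. Tnfrsf22 and Tnfrsf23 are related in sequence, and how far their probes read each other's transcripts was not tested.

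**Figure D4:**
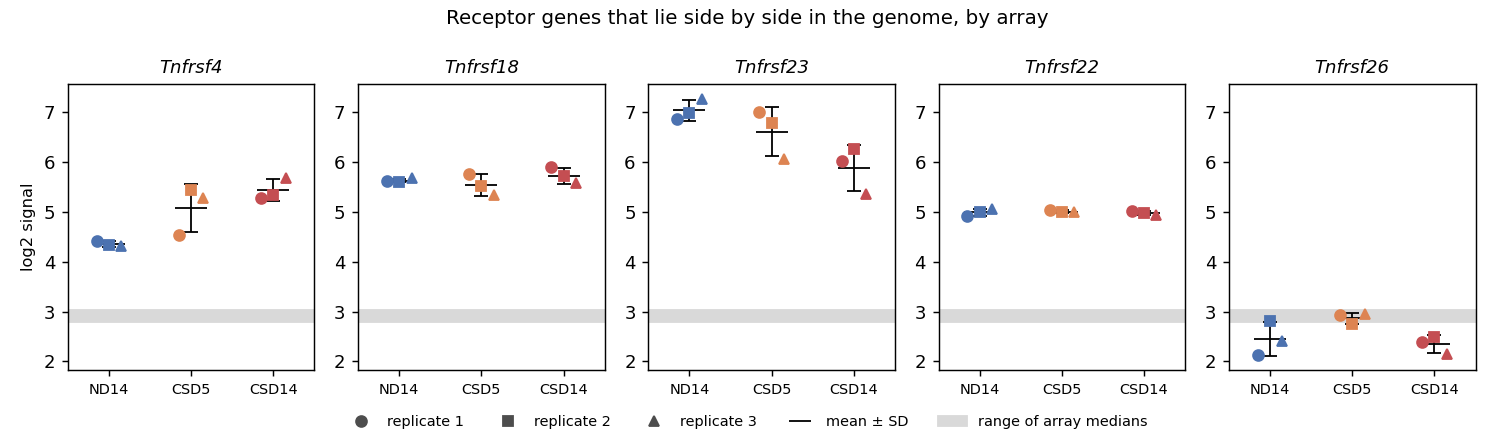
Log2 signal by array of Tnfrsf4 with its neighbour Tnfrsf18 and of Tnfrsf23 with its neighbours Tnfrsf22 and Tnfrsf26, with the mean and SD of each group. Tnfrsf4 is higher and Tnfrsf23 lower in the CSD14 arrays, while Tnfrsf18 differed by 0.10, Tnfrsf22 by -0.01 and Tnfrsf26 by -0.10.

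The other TRAF-binding receptors did not pass between CSD14 and ND14. Tnfrsf14 (HVEM, the receptor of LIGHT) was above ND14 in each CSD14 array, at 4.10, 4.06 and 4.60 against 3.77, 3.97 and 3.49 (0.51, SE 0.18, limma adjusted p = 0.13). Tnfrsf8 (CD30) was below in each, at 2.14, 2.08 and 2.34 against 2.77, 2.56 and 2.64 (-0.47, SE 0.14, adjusted p = 0.0665), at signals under the array medians. Tnfrsf12a, which encodes the TWEAK receptor Fn14, was at 6.94, 6.93 and 6.98 in CSD14, 6.76, 6.62 and 6.84 in ND14, and 6.85, 7.03 and 6.51 in CSD5. CSD14 lay just above ND14 without overlap (0.21, SE 0.14, adjusted p = 0.507). The B cell receptors Tnfrsf13b and Tnfrsf17 differed by -0.11 and 0.08, Cd27 by -0.24, Eda2r by -0.18, Tnfrsf9 (4-1BB) by 0.22 and Tnfrsf19 by 0.05. Of these, Tnfrsf13b, Tnfrsf17 and Cd27 lay under the array median on all 9 arrays and Eda2r on 6, where a change may not be seen.

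Further well known ligand and receptor pairs did not pass between CSD14 and ND14. Tnfrsf11a (RANK) was at 4.10, 3.91 and 3.88 in CSD14, 3.77, 3.67 and 3.64 in ND14, and 3.61, 3.68 and 3.43 in CSD5, so that CSD14 lay above every other array (0.27 over ND14, 95% interval 0.02 to 0.52, limma adjusted p = 0.221). Its ligand Tnfsf11 (RANKL) was at 2.82, 2.41 and 3.07 in CSD14, 2.90, 3.16 and 2.82 in ND14, and 2.89, 2.75 and 2.68 in CSD5, with overlap (-0.19, adjusted p = 0.655). The costimulatory receptor Cd40 was at 2.69, 2.57 and 2.73 in CSD14, 2.80, 2.75 and 2.62 in ND14, and 2.74, 2.61 and 2.61 in CSD5 (-0.06, 95% interval -0.29 to 0.17). It lay under the median of every array, as did its ligand Cd40lg, at 1.87, 1.73 and 1.75 in CSD14, 2.07, 2.36 and 1.87 in ND14, and 2.10, 1.87 and 1.81 in CSD5. Tnfsf13b, which encodes the B cell survival factor BAFF, was at 1.92, 1.98 and 1.96 in CSD14, 1.98, 1.96 and 2.16 in ND14, and 2.23, 1.98 and 1.98 in CSD5 (-0.08, adjusted p = 0.805). Its receptor Tnfrsf13c was at 4.45, 4.21 and 4.41 in CSD14, 4.41, 4.44 and 4.27 in ND14, and 4.43, 4.41 and 4.41 in CSD5 (-0.02, adjusted p = 0.965). The groups overlapped in both.

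Of the 15 ligands, 14 did not pass between CSD14 and ND14, with log2 differences from -0.32 (Cd40lg) to 0.49 (Tnfsf9). Tnfsf9, the ligand of 4-1BB, had log2 signals of 5.56, 5.25 and 5.26 in CSD14 and 5.01, 5.04 and 4.56 in ND14, without overlap (SE 0.18, limma adjusted p = 0.159). Cd40lg, Cd70, Tnfsf8, Tnfsf13b, Tnfsf14 (LIGHT) and Tnfsf18 lay under the array median on all 9 arrays, Fasl and Tnfsf4 on 8 and Tnfsf11 on 7. At such signals the absence of a difference does not show that the transcript was level. ND14 replicate 2, which had the highest array median, was the highest of the 9 arrays for Lta, Fasl, Cd40lg, Tnfsf11 and Tnfsf14.

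**Figure D5:**
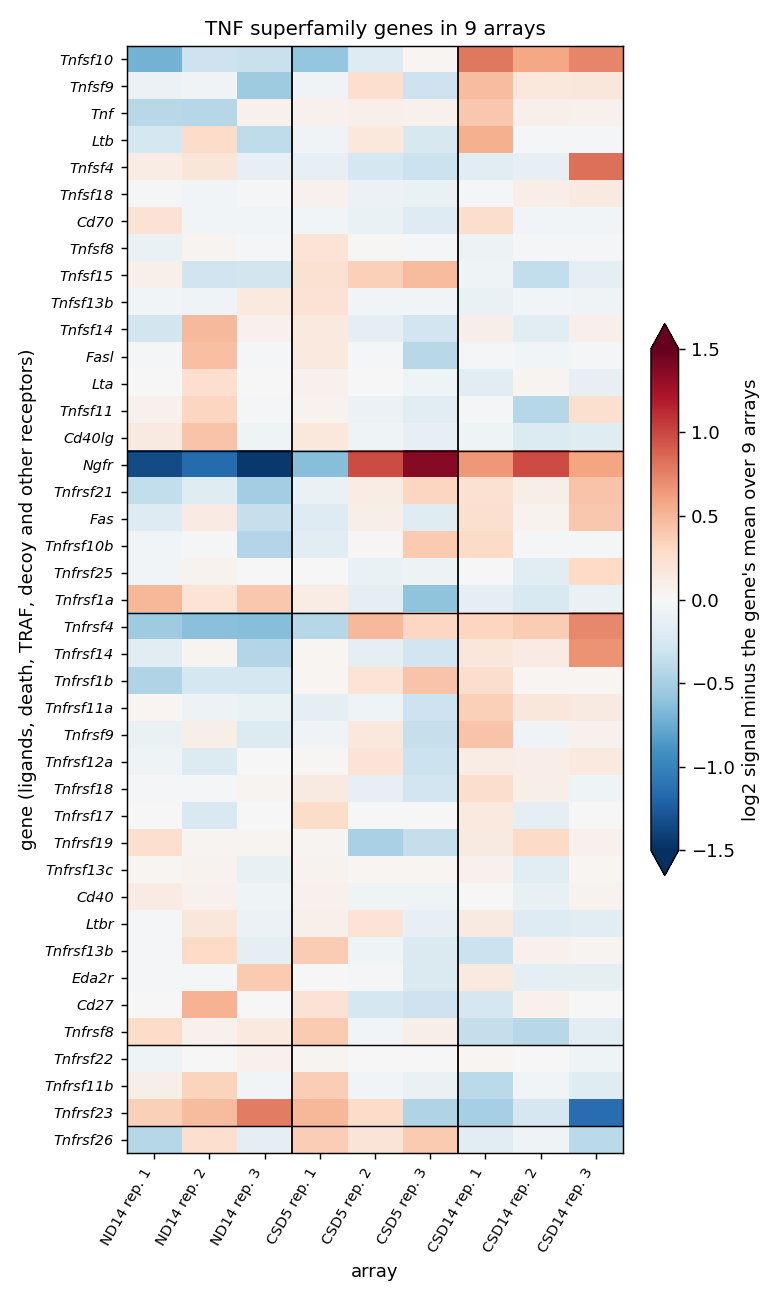
Log2 signal of each of the 41 genes minus its mean over 9 arrays, with arrays in columns and genes ordered by role and by the difference of CSD14 over ND14. The strongest contrasts between ND14 and CSD14 are in Ngfr, Tnfsf10, Tnfrsf4 and Tnfrsf23. In each of them CSD5 replicate 1 lies nearer the ND14 mean than the other CSD5 arrays do.

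Between the CS groups of day 5 and day 14, Tnfsf10 was the member that differed, and it was lower in CSD5. The difference of CSD5 over CSD14 was -0.95 (SE 0.17, limma adjusted p = 0.0245), with no overlap between the groups. This is 1 of 41 members (2.44%) where 2.41% of all transcript clusters passed, and at the study's thresholds 0 members and 1.79% of all transcript clusters did. The call did not hold without CSD5 replicate 2 (adjusted p = 0.0522), without CSD14 replicate 1, 2 or 3 (0.106, 0.0595 and 0.0902), or in a fit of the 6 arrays compared (0.0844), while the log2 difference stayed between -1.09 and -0.79. Tnfsf15, which encodes TL1A, was higher in CSD5, at 3.81, 3.94 and 4.06 against 3.52, 3.21 and 3.44 (0.55, SE 0.14, adjusted p = 0.083). Tnfrsf23 differed by 0.74 (SE 0.28, adjusted p = 0.231), and Ngfr by -0.17 with a 95% interval of -1.10 to 0.76. Macrophage and dendritic cell markers were higher in CSD5 replicates 2 and 3 (mean log2 signal 4.58 and 4.54) than in replicate 1 (4.01) and CSD14 (3.78 to 3.85), with 1 of 10 passing, the receptor gene Csf1r (1.29, adjusted p = 0.0208), while Cd68 of the same list differed by -0.34 (adjusted p = 0.466). Epithelial lists moved further between these groups: 6 of 9 squamous and basal markers were higher in CSD5 (Krt16 by 4.44) and 0 lower. Of 7 alveolar type 2 markers 2 were higher (Sftpc by 6.51 and Napsa by 2.61). In the other direction, without passing, were Sftpd at -1.33 (limma adjusted p = 0.0505), Sftpb at -0.49 and Abca3 at -0.35. Of 4 airway markers 1 was higher and 2 were lower. The part of these cells in the differences of the members was not tested.

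Without CSD5 replicate 1, 2 members passed in CSD5 against CSD14 (4.88%, where 4.11% of all transcript clusters passed), Tnfsf10 at -0.79 (adjusted p = 0.0257) and Tnfrsf19 at -0.59 (SE 0.13, adjusted p = 0.037). Tnfrsf19, which encodes the receptor TROY, had log2 signals of 5.16, 4.63 and 4.76 in CSD5 and 5.26, 5.41 and 5.18 in CSD14.

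Between CSD5 and ND14 no member passed with all 9 arrays. Limma called 0 of 41 members and 0.0029% of all transcript clusters, and 8 members (19.5%) had an unadjusted p under 0.05, as did 13.8% of all transcript clusters. At the study's thresholds 1 member (2.44%) passed, Ngfr, where 1.98% of all transcript clusters did. The Ngfr difference was 1.88 (SE 0.42, limma adjusted p = 0.194, 95% interval 0.95 to 2.81). With CSD5 replicate 1 left out, 7 members passed (17.1%, against 9.67% of all transcript clusters), 5 higher and 2 lower in CSD5. Ngfr then differed by 2.49 (SE 0.17, adjusted p = 2.5e-05), Tnfrsf4 by 1.0 (SE 0.14, adjusted p = 0.00202), Tnfrsf1b by 0.64 (adjusted p = 0.015), Tnfsf15 by 0.58 (adjusted p = 0.0448) and Tnfrsf21 by 0.58 (adjusted p = 0.0428). Tnfrsf1a differed by -0.74 (adjusted p = 0.0165) and Tnfrsf19 by -0.54 (adjusted p = 0.0286). Tnfsf10 was not among them, at 0.36 (adjusted p = 0.189). These values and those of CSD14 against ND14 share the ND14 arrays and are not independent of each other. Named genes were called more often than all transcript clusters in CSD14 against ND14 (12.4% against 9.15%), and their share without CSD5 replicate 1 was not counted.

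Downstream of the receptors, 5 genes of the adaptor, kinase, death and inhibitor lists passed between CSD14 and ND14. These were 5 of 38 measured (13.2%), near the 12.4% of all named genes. Of 17 measured adaptors and kinases, 3 rose, 1 fell and 13 did not pass, with a median of -0.10. Sharpin (0.77, SE 0.12, limma adjusted p = 0.00348) and Rnf31 (1.14, SE 0.23, adjusted p = 0.0123) encode subunits of the linear ubiquitin ligase that acts at the TNF receptor. Rbck1, which encodes a further subunit, did not pass (-0.17, SE 0.26, adjusted p = 0.82). Tab1, an activator of the kinase TAK1, rose by 0.83 (SE 0.13, adjusted p = 0.00481), and Map3k7, which encodes TAK1, differed by -0.79 (SE 0.14, adjusted p = 0.00632). Of 11 death pathway genes 0 passed (median -0.16), with the necroptosis effector Mlkl nearest at -0.67 (SE 0.18, adjusted p = 0.0503). The initiator Casp8 and its inhibitor Cflar were at -0.20 and -0.16, and Bid, Fadd and Diablo were on the other side, at 0.52, 0.22 and 0.07. Of 10 genes that restrain the pathway 1 fell, Tnip1 (-0.54, SE 0.14, adjusted p = 0.038). The 9 others did not pass and went both ways. Nearest were Nfkbie at 0.42 (adjusted p = 0.0579), Zfp36 at -0.38 (0.0596) and Cyld at 0.51 (0.0771), while Tnfaip3 (A20) was at -0.18.

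Of 8 genes of ligand shedding and trafficking, 2 rose and 6 did not pass (median 0.21). Together with the lists above and the family relatives below, 8 of 51 measured genes passed (15.7%, against 12.4% of all named genes). Timp3, which encodes an inhibitor of the TNF-releasing protease ADAM17, rose by 2.43 (SE 0.39, limma adjusted p = 0.00483), and Sppl2a, an intramembrane protease that cleaves the TNF stump, by 0.63 (SE 0.11, adjusted p = 0.00723). Adam17 itself was at -0.26 and Adam10 at 0.09, neither of which passed. Of 5 measured family relatives outside the naming rule, 1 fell, the ectodysplasin receptor adaptor Edaradd (-0.76, SE 0.11, adjusted p = 0.00299), with Eda at 0.31 and Edar at -0.34. In CSD5 against CSD14, 0 genes of these lists passed with all 9 arrays, where 2.41% of all transcript clusters did. In CSD5 against ND14 0 passed as well, where 0.0029% of all transcript clusters did, so a count of 0 says little.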

How the data were processed

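RNA of 9 organoid samples (10 ng of total RNA each) was hybridised to Affymetrix Mouse Gene 2.0 ST arrays. The authors deposited 1 log2 signal for each transcript cluster and array from Transcriptome Analysis Console; the summarisation algorithm is not given in the sources used here. They were used without further scaling. Of 34472 transcript clusters 23521 carry 1 gene symbol in the platform annotation.

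Groups and replicate numbers came from the sample titles. A linear model of the 3 groups on all 9 arrays was fitted in limma 3.58.1 (R 4.3.3) with empirical Bayes moderation, and p-values were adjusted across the 34472 transcript clusters by Benjamini-Hochberg. Intervals are at 95% and unadjusted. The procedure was run on simulated data with independent normal noise and known shifts. That simulation held no array that stood apart from its group, so it does not show how calls fare in these data. The number of arrays limits the precision.

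The members, lists, motifs and tests were chosen with earlier results of these data known. Values in every array are given for members that passed in any comparison or belong to a list of core ligand and receptor pairs. Tnfrsf8, Tnfrsf14, Tnfrsf19, Tnfsf9 and Tnfsf15 were added after their values were seen. From each downstream list up to 4 genes with the smallest adjusted p were eligible, and others named were chosen for their role or direction. Alternatives were other fits, scalings and filters, weighting of arrays, the replicate number as a block, the study's thresholds and leaving out each array in turn. Figures were drawn with matplotlib 3.10.9.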

Additional observations from a re-analysis of the deposited data

How the results depend on the processing

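Shares in parentheses are of all transcript clusters called under the same setting. For CSD14 against ND14 the 5 members called became 8 with only the 6 arrays compared (11.2% of all transcript clusters) and 10 with array weights (14.5%), and 2 to 8 when single arrays were left out. There were 2 without CSD14 replicate 3, ND14 replicate 1 or ND14 replicate 3 (5.75%, 5.11% and 5.4%), 3 without CSD14 replicate 1 (5.47%) and 8 without CSD5 replicate 1 (11.9%). For CSD5 against CSD14 the count of 1 became 0 with only the 6 arrays compared (0.409%) and at the study's thresholds (1.79%), 3 with array weights (7.29%), and 0 to 2 without single arrays. For CSD5 against ND14 the count of 0 became 8 with array weights (17.1%), 1 at the study's thresholds (1.98%), and 0 to 7 without single arrays (7 without CSD5 replicate 1, 9.67%). With the replicate number as a block the counts were 4, 1 and 0. Deviations from the group mean had correlations of -0.13 to 0.06 between samples with the same number and of -0.11 to 0.10 between samples with different numbers. Such values do not show whether the numbers pair the samples. The block lost the call of Tnfrsf21 and changed no other. Median centring and quantile normalization each gave 6 in CSD14 against ND14, adding Tnfrsf8. The cause of these changes was not tested. Over the 41 members in the 3 comparisons, 2095 of the values under other settings kept their call or, without a call, moved by less than 1 SE, 23 lost a call, 35 gained one, and 28 moved by more without a call. No call changed its direction. Signals near the array medians limit what can be seen for most ligands.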
